A study of Mus musculus with 12 samples.

Results

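Mouse embryonic stem cells (ESC) lacking the BMP receptor gene Bmpr1a were set against wild-type ESC after both had shared the same cultures and had been sorted apart again. The comparison used 6 of the 12 arrays of the series, 3 of mixed Bmpr1a-/- cells and 3 of mixed wild-type cells, taken by their labels. Per the labels, Bmpr1a-/- ESC marked with green fluorescent protein (GFP) and unmarked wild-type ESC were mixed at equal proportions, kept for 3 days in N2B27, a defined medium without serum in which ESC leave the naive state, and separated by flow sorting on GFP before RNA extraction. The other 6 arrays, 3 of separate Bmpr1a-/- cells and 3 of separate wild-type cells, held the same lines grown apart for the same 3 days, and were used to estimate the spread and for 1 further comparison. The BMP receptor deletion, the cell line and the GFP mark came together in every Bmpr1a-/- array, so they cannot be told apart. The file headers give every Bmpr1a-/- column the same cell name and every wild-type column another. The comparison therefore sets 1 named line against 1 other, and the labels do not say whether a name stands for 1 clone. Replicate numbers 1 to 3 are called experiments in the file headers. The labels do not say that they were separate cultures, so p-values measure the spread between these samples.

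BMP4 binds receptor pairs that include the type I receptor Bmpr1a, which phosphorylates Smad1 and Smad5, and the Smads switch on targets such as the Id genes. In ESC, BMP signalling works with the cytokine LIF to hold cells undifferentiated, while FGF signalling through the kinase ERK and signals of the Nodal family move cells from naive pluripotency, the state of the early epiblast, to the primed state of the later epiblast. Mixed cultures of this kind are used to study cell competition, in which less fit cells are lost next to fitter neighbours.

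Genes were measured on Affymetrix MoGene ST arrays, whose signal is given here on the linear RMA scale of the deposited workbook, and differences are log2 values followed by their standard error (SE). The median signal of the 12 arrays lay between 51.6 and 54.3. Within a mixed group, arrays correlated at 0.9924 to 0.9959 across genes, and between the mixed groups at 0.9775 to 0.9860. The first principal component of the 12 arrays held 48.1% of the variance and separated the genotypes. Of 10 defining ESC markers, 9 were measured on probe sets of their own. Their summed signal was 9523 to 10516 in mixed Bmpr1a-/- and 6758 to 7230 in mixed wild-type arrays. Most of the gap between these sums comes from 1 gene, Dppa5a, whose signals are given below. Of the 9 markers, 4 passed as higher in Bmpr1a-/- cells and none as lower. In mixed wild-type cells 1 of the 9 had a mean signal under the median of the table, and in mixed Bmpr1a-/- cells none did. Both sorted populations thus expressed these markers, but naive and primed cells share some of them, so the sum does not tell these states apart. In bulk RNA, fewer cells of a type and less RNA per cell cannot be told apart.

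Of 17621 genes tested, 2905 (16.5%) differed between mixed Bmpr1a-/- and mixed wild-type cells at an adjusted p under 0.05 in limma. In Bmpr1a-/- cells 1121 of them (6.36% of genes tested) were higher and 1784 (10.1%) were lower. The 3-array ranges did not overlap in 2876 of the 2905, against 32.7% of all genes tested. The rises were fewer but reached further: 141 genes rose at least 2-fold and 26 fell at least 2-fold, and the median size of a difference among the genes that passed was 0.44. When the median of each array was subtracted first, 2860 genes passed, and these split into 1439 higher and 1421 lower. Replicate numbers paired the mixed arrays, and a fit of the 6 mixed arrays with the replicate number as a block passed 5671 genes. Without mixed Bmpr1a-/- replicate 2, 1851 genes passed.

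**Figure D1:**
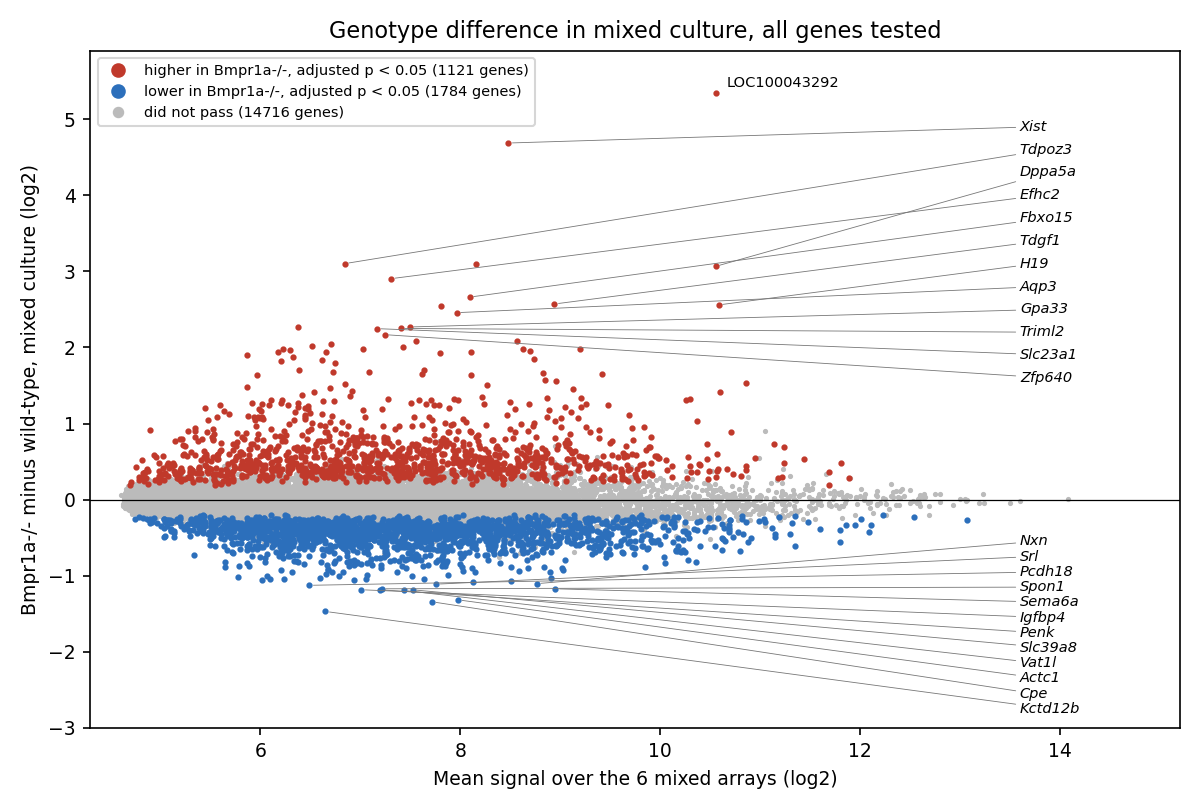
Each point is 1 of the 17621 genes tested; the x axis is the log2 of the mean signal over the 6 mixed arrays and the y axis the log2 difference, mixed Bmpr1a-/- minus mixed wild-type. Red points passed and were higher in Bmpr1a-/- cells (1121), blue points passed and were lower (1784), and the rises reach 5.34 for LOC100043292 and 4.69 for Xist while the falls stop at -1.47 for Kctd12b.

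The targeted gene was lower but not lost. Bmpr1a had signals of 381, 362 and 365 in mixed Bmpr1a-/- arrays, against 505, 555 and 512 in mixed wild-type arrays. The groups did not overlap, and the difference was -0.50 ± 0.07 (SE, n = 3 arrays each, adjusted p = 0.00044). The sources used here do not place the probes against the deletion, so this level does not measure it. Of 14 BMP receptors and Smads measured, 3 fell (21.4%, beside 10.1% of all genes), none rose and the median was -0.18, beside -0.02 over all genes. The others that fell were the type I receptor gene Acvr1 (-0.27 ± 0.07, adjusted p = 0.024) and Smad1 (-0.27 ± 0.08, adjusted p = 0.030). Both lost the call without mixed wild-type replicate 2 or 3 or without mixed Bmpr1a-/- replicate 1 or 2 (Smad1 also without mixed Bmpr1a-/- replicate 3), with adjusted p-values up to 0.112 for Acvr1 and 0.123 for Smad1. Both also lost it after subtraction of array medians and with another variance model (eBayes with trend). Smad1 lost it too when the mixed arrays were fitted alone and after quantile normalizing again.

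Among the 8 ligands measured, only Bmp4 rose (12.5%, beside 6.36% of all genes). Its signals were 99.2, 96.3 and 87.1 in Bmpr1a-/- arrays and 69.5, 65.9 and 57.6 in wild-type arrays, without overlap (0.55 ± 0.09, adjusted p = 0.001).

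The Id genes, the best known BMP targets, did not pass in the fit of all 12 arrays. Id1 had 65.3, 68.7 and 64.4 in Bmpr1a-/- arrays and 74.1, 76.4 and 67.3 in wild-type arrays, a difference of -0.13 ± 0.11 (adjusted p = 0.52). Id2 differed by -0.32 ± 0.19 (adjusted p = 0.32) and Id3 by -0.23 ± 0.18 (adjusted p = 0.49). All 3 had overlapping ranges. With the replicate number as a block in the 6 mixed arrays alone, Id2 passed (adjusted p = 0.0059), while Id1 (adjusted p = 0.12) and Id3 (adjusted p = 0.074) did not. Of 18 BMP targets measured, 5 rose (27.8%, beside 6.36% of all genes) and 1 fell, and the list's median was 0.07. Dusp9, a phosphatase that dephosphorylates ERK and has been described as a BMP target in ESC, had 282, 328 and 236 in Bmpr1a-/- arrays and 144, 129 and 122 in wild-type arrays (1.09 ± 0.11, adjusted p = 6.1e-05). Smad7, which encodes an inhibitory Smad, had 109, 104 and 88.9 against 64.3, 62.5 and 61.6 (0.68 ± 0.11, adjusted p = 0.0011), while Smad6, the other inhibitory Smad, differed by 0.11 ± 0.09 (adjusted p = 0.56). Dusp9 lies on the X chromosome, whose genes are described further on. Of 11 secreted BMP antagonists and follistatin-like genes, 1 fell (9.09%, near the 10.1% of all genes): Fstl1, with 189, 165 and 162 in Bmpr1a-/- arrays and 286, 284 and 280 in wild-type arrays (-0.73 ± 0.13, adjusted p = 0.0027).

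Genes of naive pluripotency were higher in Bmpr1a-/- cells: 22 of 28 measured members rose (78.6%, beside 6.36% of all genes), 1 fell, and the list's median was 0.84. Dppa5a, an RNA-binding protein of undifferentiated ESC, had 3234, 2627 and 2133 in Bmpr1a-/- arrays and 557, 208 and 267 in wild-type arrays. The lowest Bmpr1a-/- array stood above the highest wild-type array, and the difference was 3.07 ± 0.35 (adjusted p = 0.00011). Fbxo15, an F-box protein gene used as an ESC reporter, had 469, 510 and 431 in Bmpr1a-/- arrays and 105, 56.5 and 68.9 in wild-type arrays (2.66 ± 0.27, adjusted p = 4.9e-05). Zfp42, which encodes the zinc finger protein Rex1, had 280, 366 and 262 against 99.1, 52.9 and 66.8 (2.09 ± 0.27, adjusted p = 0.00025). Esrrb, an orphan nuclear receptor of the naive network, had 184, 241 and 198 against 58.8, 43.9 and 55.5 (1.98 ± 0.15, adjusted p = 5.5e-06). In none of these 4 genes did the groups overlap.

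The orphan nuclear receptor gene Nr0b1 rose by 1.46 ± 0.23 (adjusted p = 0.00084) and the adhesion molecule gene Pecam1 by 1.38 ± 0.13 (adjusted p = 3.4e-05). Klf4, another factor of the naive network, stood near the median of the table in both groups, at 63.7, 80.5 and 58.6 in Bmpr1a-/- arrays and 59.0, 62.0 and 63.5 in wild-type arrays, and did not pass (0.12 ± 0.13, adjusted p = 0.64). The member that fell was Socs3, a feedback inhibitor of LIF signalling whose gene lies on chromosome 11 (-0.48 ± 0.14, adjusted p = 0.035). Its call was lost without mixed wild-type replicate 2 or 3 or mixed Bmpr1a-/- replicate 1 or 2 (adjusted p up to 0.136). It was also lost after subtraction of array medians, without the signal filter and with the mean of a gene's probe sets.

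The core factors shared by naive and primed cells differed less, and 1 of 5 measured rose (20%, beside 6.36% of all genes). Sox2 had 891, 979 and 892 in Bmpr1a-/- arrays and 459, 659 and 517 in wild-type arrays, without overlap (0.77 ± 0.18, adjusted p = 0.0094). Pou5f1, which encodes Oct4, had 2471, 2553 and 2674 against 2244, 2094 and 2296; the ranges were apart, but the difference of 0.22 ± 0.08 did not pass (adjusted p = 0.11) except with the block in the 6 mixed arrays (adjusted p = 0.021) and with array weights. Nanog was measured only on a probe set it shares with the pseudogene Nanogpd, so its signal cannot be assigned to 1 of them. That probe set had 662, 555 and 551 in Bmpr1a-/- arrays and 364, 221 and 373 in wild-type arrays (0.92 ± 0.20, adjusted p = 0.0082 over 1912 shared probe sets).

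**Figure D2:**
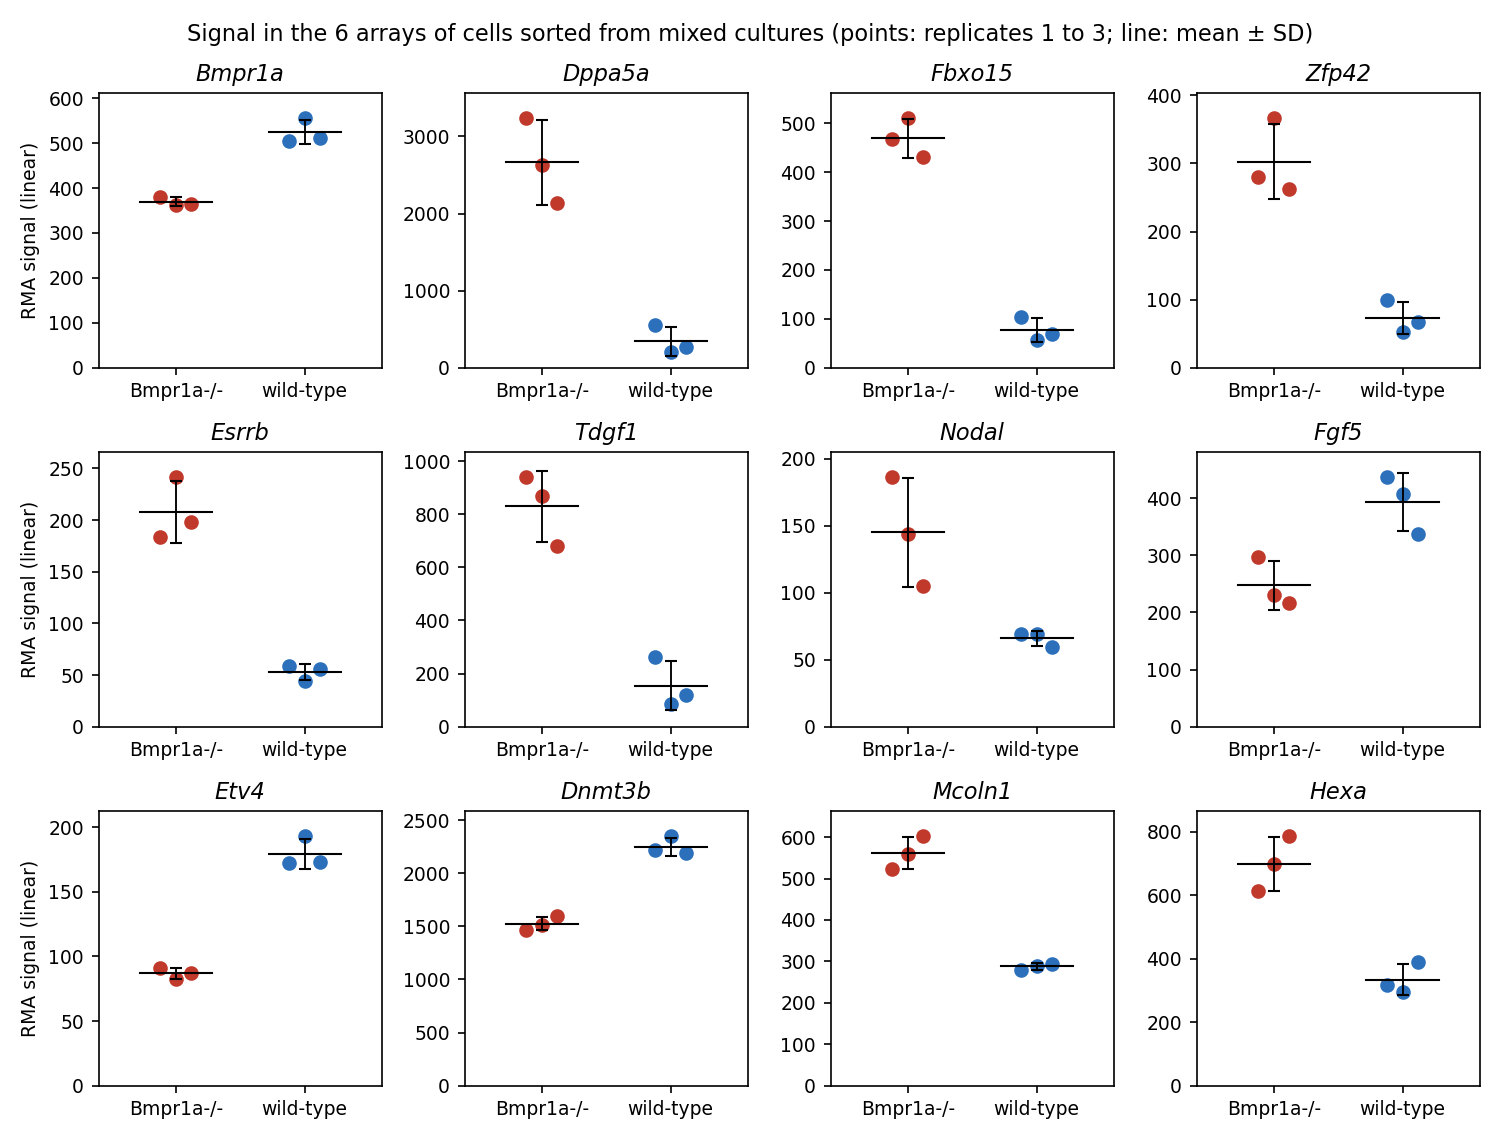
Linear RMA signal of 12 genes in the 6 mixed arrays, with Bmpr1a-/- cells on the left and wild-type cells on the right of each panel; points are arrays and bars the mean ± SD (n = 3). Naive genes, Tdgf1, Nodal and the lysosomal genes Mcoln1 and Hexa are higher in Bmpr1a-/- cells, and Bmpr1a, Fgf5, Etv4 and Dnmt3b are lower, with no overlap in any panel.

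Genes of the primed state went both ways. Of 26 measured, 8 fell (30.8%, beside 10.1% of all genes), 3 rose, and the median was -0.17. The deepest of these falls was Etv4 (-1.04), which is also counted among the FGF and ERK targets further on. Fgf5, a growth factor that marks the early primed epiblast, had 296, 230 and 216 in Bmpr1a-/- arrays and 437, 407 and 338 in wild-type arrays, without overlap (-0.67 ± 0.15, adjusted p = 0.0084). Dnmt3b, the de novo DNA methyltransferase that rises as naive cells become primed, had 1467, 1517 and 1596 against 2219, 2347 and 2187 (-0.56 ± 0.06, adjusted p = 8.9e-05). Zic5, a zinc finger factor gene, had 496, 538 and 546 against 795, 850 and 828 (-0.65 ± 0.08, adjusted p = 0.00015).

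Otx2, a factor that drives the entry into the primed state, had 968, 802 and 711 in Bmpr1a-/- arrays and 1102, 889 and 839 in wild-type arrays; the ranges overlapped and it did not pass (-0.19 ± 0.14, adjusted p = 0.45), but did with the block in the 6 mixed arrays (adjusted p = 0.029). The members that rose included Nodal and Grhl2. Outside chromosomes 11 and X, 2 of 22 primed genes rose and 7 fell.

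Of 18 FGF and ERK targets measured, transcripts that this pathway induces, 6 fell (33.3%, beside 10.1% of all genes), none rose, 12 did not pass, and the median was -0.21. The highest member, Dusp4, an ERK phosphatase gene, differed by 0.49 ± 0.19 (adjusted p = 0.11) and passed as higher with the replicate block (adjusted p = 0.0029), with the 6 mixed arrays alone and with array weights. Etv4, an ETS factor gene that FGF induces, had 91.3, 82.6 and 87.2 in Bmpr1a-/- arrays and 172, 193 and 173 in wild-type arrays, so that each Bmpr1a-/- array had close to the same level and the groups stood wide apart (-1.04 ± 0.13, adjusted p = 0.00017). Spred1, which encodes a feedback inhibitor of the ERK pathway, had 170, 159 and 188 against 235, 290 and 290 (-0.66 ± 0.14, adjusted p = 0.0052). Cyclin D1, Ccnd1, had 373, 343 and 316 against 533, 506 and 479 (-0.56 ± 0.11, adjusted p = 0.0033). Il17rd, which encodes an inhibitor of FGF signalling, fell by 0.25 on the log2 scale (SE 0.07, adjusted p = 0.031) and lost the call without replicate 2 or 3 of mixed wild-type or replicate 1 or 2 of mixed Bmpr1a-/- cells (adjusted p up to 0.140) and under 5 other settings. The growth factor gene Fgf4, which is expressed by naive cells and counted among them above, rose, with 326, 409 and 320 in Bmpr1a-/- arrays and 203, 160 and 144 in wild-type arrays (1.06 ± 0.16, adjusted p = 0.00083). Leaving out mixed Bmpr1a-/- replicate 2 or mixed wild-type replicate 3, or quantile normalizing again, left 3 ERK targets that fell. Etv4 lies on chromosome 11, and outside chromosomes 11 and X 4 of 16 ERK targets fell, with a median of -0.14.

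Of 18 Nodal and activin pathway genes measured, 5 rose (27.8%, beside 6.36% of all genes), none fell, and the median was 0.08. Tdgf1, which encodes the Nodal co-receptor Cripto, had 938, 868 and 681 in Bmpr1a-/- arrays and 261, 86.4 and 117 in wild-type arrays (2.57 ± 0.37, adjusted p = 0.00051). Nodal itself had 186, 144 and 105 against 69.4, 69.1 and 59.3 (1.10 ± 0.18, adjusted p = 0.0014). Lefty1, a secreted Nodal inhibitor and Nodal target, had 178, 129 and 81.9 against 43.0, 36.7 and 34.1 (1.71 ± 0.25, adjusted p = 0.00059). Lefty2 rose by 1.08 ± 0.14 (adjusted p = 0.00023). In all 4 genes the Bmpr1a-/- arrays were above every wild-type array. Skil, a Smad co-repressor that activin and Nodal induce, rose by 0.30 ± 0.07 (adjusted p = 0.013), and lost the call without replicate 2 of either mixed group (adjusted p up to 0.066).

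Genes used in the germ line and in early cleavage embryos, which ESC can transcribe at low levels, were measured next. Of 14 germ line and meiosis genes measured, 10 rose (71.4%, beside 6.36% of all genes), none fell, and the median was 0.74. Tdrd12, a Tudor domain gene of the piRNA pathway, had 677, 628 and 572 in Bmpr1a-/- arrays and 244, 114 and 142 in wild-type arrays (1.98 ± 0.31, adjusted p = 0.00086). Smc1b, a meiotic cohesin subunit gene, had 142, 166 and 169 against 45.4, 33.1 and 47.4 (1.94 ± 0.19, adjusted p = 3.3e-05). Sycp3, a protein of the synaptonemal complex that holds paired chromosomes together in meiosis, had 213, 112 and 190 against 83.9, 47.2 and 68.3 (1.36 ± 0.28, adjusted p = 0.0053). Replicate 2 was the lowest of Sycp3 in both groups, and the groups did not overlap.

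Of 16 listed genes from families active at the 2-cell stage, 7 were measured, and 6 of them passed as higher, beside 6.36% of all genes. That count includes Tdpoz3 and Tdpoz4, whose entry into the test is described next, so it is not read as a result about the list. Tdpoz3 had 218, 237 and 163 in Bmpr1a-/- arrays and 23.4, 23.5 and 24.3 in wild-type arrays, and Tdpoz4 had 118, 95.5 and 64.1 against 24.4, 24.7 and 23.3. The wild-type signals lay under 25.37, the mean signal below which probe sets were left out, so both genes entered the test only through the Bmpr1a-/- arrays, and no size of the difference or p is given for them. Members of these families are near copies of each other, and how far their probes share signal was not tested. At the 50th percentile of signal only 2 of the 7 were left.

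Of 8 DNA methylation factors, 2 rose (25.0%) and 1 fell (12.5%), beside 6.36% and 10.1% of all genes. Dnmt3l, the catalytically inactive partner of the de novo methyltransferases, had 647, 716 and 465 in Bmpr1a-/- arrays and 212, 115 and 116 in wild-type arrays (2.08 ± 0.27, adjusted p = 0.00025), opposite to Dnmt3b. The maintenance methyltransferase gene Dnmt1 differed by -0.02 ± 0.07 (adjusted p = 0.93) and its partner Uhrf1 by 0.12 ± 0.07 (adjusted p = 0.36). Tet1, a dioxygenase that oxidises methylcytosine, had 556, 990 and 845 against 483, 521 and 575; it did not pass (0.56 ± 0.22, adjusted p = 0.10), but did with the replicate number as a block (adjusted p = 0.047). Tet2 rose by 0.27 ± 0.08 (adjusted p = 0.031), a call lost without any 1 of 5 mixed arrays (all but mixed Bmpr1a-/- replicate 1, adjusted p up to 0.130) and when the 6 mixed arrays were fitted alone.

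Imprinted genes, expressed from 1 parental copy, had 5 of 23 members that rose (21.7%, beside 6.36% of all genes) and 3 that fell (near the 10.1% of all genes). The maternally expressed H19, a long non-coding RNA, had 1595, 3538 and 2797 in Bmpr1a-/- arrays and 385, 366 and 547 in wild-type arrays (2.56 ± 0.27, adjusted p = 6.1e-05). The paternally expressed Peg10 had 1496, 3082 and 2230 against 629, 1121 and 764 (1.42 ± 0.25, adjusted p = 0.0019). The maternally expressed Igf2r, a receptor that carries enzymes to lysosomes, had 440, 645 and 668 against 227, 237 and 262 (1.25 ± 0.15, adjusted p = 0.00017). The paternally expressed Ndn had 295, 257 and 241 against 501, 544 and 474 (-0.94 ± 0.12, adjusted p = 0.00017). Nnat, also paternally expressed, fell by 0.89 on the log2 scale (SE 0.12, adjusted p = 0.00028). Paternally expressed genes were thus among both those that rose and those that fell.

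Lysosomes break down proteins, lipids and sugars with acid hydrolases, and many of their genes carry an E-box, written TCACGTG, to which the factors TFEB and TFE3 bind. Many of these genes were higher in Bmpr1a-/- cells. Of 44 lysosome and autophagy genes measured, 26 rose (59.1%, beside 6.36% of all genes), 1 fell, and the median was 0.42. The 3-array ranges were apart and higher in Bmpr1a-/- cells in 28 of them and apart and lower in 4 (32.7% of all genes were apart in either direction). The median lay between 0.36 and 0.44 when any 1 array was left out, with 19 to 26 genes that rose. The 1 gene that fell, Becn1, an autophagy gene, lies on chromosome 11.

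Lamp2, an X-linked gene that encodes a protein of the lysosomal membrane, had 498, 454 and 501 in Bmpr1a-/- arrays and 236, 180 and 262 in wild-type arrays (1.12 ± 0.17, adjusted p = 0.00064). Hexa, which encodes a lysosomal enzyme that degrades gangliosides, had 613, 698 and 785 against 318, 294 and 390 (1.07 ± 0.15, adjusted p = 0.00033). Mcoln1, which encodes the lysosomal calcium channel mucolipin 1, had 523, 559 and 602 against 279, 290 and 295 (0.96 ± 0.08, adjusted p = 9.6e-06). Ctsa, the protective protein cathepsin A, had 475, 472 and 476 against 258, 241 and 250 (0.93 ± 0.10, adjusted p = 8.9e-05). The Ctsa and Mcoln1 arrays varied little within each group, and none of these 4 genes had overlapping ranges. Cd63, a membrane protein of late endosomes, rose by 0.99 ± 0.16 (adjusted p = 0.0014).

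Promoters of these genes are shown because the E-box lies in several of them. The windows run from 250 bases before to 50 bases after the RefSeq start on build GRCm38.p6, with TCACGTG on either strand in capitals (where both strands match, the 2 matches overlap and give an 8-letter stretch). Mcoln1 and Ctsa are the genes named above whose window holds it, and Lamp1, another lysosomal membrane protein gene (0.73 ± 0.09, adjusted p = 0.00013), was added after its values were seen because its window holds 4 stretches. The windows are chr8:3500269-3500568 (plus strand) for Mcoln1, chr2:164833523-164833822 (plus strand) for Ctsa and chr8:13158911-13159210 (plus strand) for Lamp1.
Mcoln1: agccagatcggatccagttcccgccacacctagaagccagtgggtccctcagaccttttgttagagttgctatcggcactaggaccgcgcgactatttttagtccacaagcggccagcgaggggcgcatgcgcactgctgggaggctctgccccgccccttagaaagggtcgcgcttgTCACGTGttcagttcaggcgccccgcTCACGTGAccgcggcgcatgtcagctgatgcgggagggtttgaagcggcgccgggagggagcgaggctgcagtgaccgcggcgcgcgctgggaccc
Ctsa: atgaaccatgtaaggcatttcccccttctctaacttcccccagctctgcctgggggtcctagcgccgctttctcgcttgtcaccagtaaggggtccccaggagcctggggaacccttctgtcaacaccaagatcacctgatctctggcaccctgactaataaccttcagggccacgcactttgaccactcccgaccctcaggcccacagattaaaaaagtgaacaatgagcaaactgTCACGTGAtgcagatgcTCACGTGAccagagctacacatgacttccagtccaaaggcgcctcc
Lamp1: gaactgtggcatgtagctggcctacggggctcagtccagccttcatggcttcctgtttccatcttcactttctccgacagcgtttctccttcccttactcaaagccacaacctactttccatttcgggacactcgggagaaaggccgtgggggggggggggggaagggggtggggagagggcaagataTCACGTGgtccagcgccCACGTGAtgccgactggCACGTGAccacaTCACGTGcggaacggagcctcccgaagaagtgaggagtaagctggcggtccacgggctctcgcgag

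Of the 44 lysosome genes, 32 had a promoter window in the table, and TCACGTG was present in 11 of them (34.4%), beside 6.03% of 12745 tested genes with a window and 3.77% of all 32851 windows. Among the lysosome genes that rose it was in 8 of 20, and among the others in 3 of 12. The shorter E-box CACGTG, which TCACGTG contains, was in 12 of the 32 lysosome genes and in 10.7% of the tested genes. A match is only a run of letters in the window.

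Regulators of lysosome genes and of the growth kinase mTOR, which holds TFEB and TFE3 out of the nucleus when nutrients are plentiful, were measured too. Of 35 mTOR pathway genes, 7 rose (20%, beside 6.36% of all genes) and 3 fell (8.57%, near the 10.1% of all genes), with a median of 0.08. Rragc, a Rag GTPase that brings mTOR to the lysosome, had 446, 414 and 468 in Bmpr1a-/- arrays and 242, 244 and 276 in wild-type arrays (0.80 ± 0.08, adjusted p = 4.2e-05). Tfe3, on the X chromosome, had 315, 346 and 281 against 237, 214 and 214 (0.50 ± 0.11, adjusted p = 0.0078), and Ddit4, a stress-induced mTOR inhibitor, rose by 0.53 ± 0.12 (adjusted p = 0.0089). Mtor itself did not pass (-0.01 ± 0.10, adjusted p = 0.97). The 3 genes that fell, Nprl3, Rptor and Rps6kb1, all lie on chromosome 11. Without mixed Bmpr1a-/- replicate 2, 1 gene of the list fell. The count of rises was 4 without mixed Bmpr1a-/- replicate 2 or 3 or mixed wild-type replicate 1 or 2.

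Of 27 genes of cholesterol and fatty acid synthesis measured, 12 fell (44.4%, beside 10.1% of all genes), none rose, 15 did not pass, and the median was -0.31. Scd2, a desaturase that makes monounsaturated fatty acids, had 1973, 2043 and 2173 in Bmpr1a-/- arrays and 2998, 3440 and 3042 in wild-type arrays (-0.61 ± 0.09, adjusted p = 0.00052), and its relative Scd1 had 823, 866 and 785 against 1175, 1281 and 1117 (-0.53 ± 0.09, adjusted p = 0.0013). Every Bmpr1a-/- array was below every wild-type array in both genes. Acly (-0.60), Fasn (-0.55) and Acaca (-0.52), which make cytosolic acetyl-CoA and fatty acids from it, all passed and all lie on chromosome 11. Outside chromosomes 11 and X, 9 genes of the list fell and the median was -0.28. Without mixed Bmpr1a-/- replicate 2, 6 of the 27 fell.

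Of 33 ribosome biogenesis genes measured, 7 fell (21.2%, beside 10.1% of all genes), 1 rose, and the median was -0.13. Ftsj3, a factor of pre-rRNA processing, had 1020, 946 and 980 in Bmpr1a-/- arrays and 1440, 1386 and 1416 in wild-type arrays (-0.53 ± 0.07, adjusted p = 0.00031); it lies on chromosome 11. Ddx21, a nucleolar RNA helicase gene on chromosome 10, had 1201, 1226 and 1181 against 1547, 1638 and 1599 (-0.41 ± 0.06, adjusted p = 0.00079). The replicate block passed 11 of the list as lower, and the fit without genes of chromosomes 11 and X passed 4 of 26.

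Among 29 genes of glycolysis and hypoxia, 6 rose (20.7%, beside 6.36% of all genes) and 4 fell (13.8%, near the 10.1% of all genes). Ndrg1, a hypoxia-induced gene, had 214, 288 and 228 in Bmpr1a-/- arrays and 118, 130 and 123 in wild-type arrays (0.96 ± 0.10, adjusted p = 6.2e-05). The lactate transporter gene Slc16a3, on chromosome 11, had 1062, 814 and 864 against 1679, 1605 and 1442 (-0.79 ± 0.15, adjusted p = 0.0025). Subtracting array medians, or the replicate block, gave 10 rises. The rises were 4 without mixed Bmpr1a-/- replicate 3 or mixed wild-type replicate 2, and 5 without mixed Bmpr1a-/- replicate 2 or without the signal filter. The falls were 2 without mixed Bmpr1a-/- replicate 2 or 3 or mixed wild-type replicate 1 or 2.

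Targets of the tumour suppressor p53 were partly higher: 9 of 30 rose (30.0%, beside 6.36% of all genes), none fell, and the median was 0.18. Eda2r, a death receptor gene on the X chromosome, had 784, 806 and 766 in Bmpr1a-/- arrays and 349, 365 and 412 in wild-type arrays (1.07 ± 0.07, adjusted p = 2.7e-06). Plk3, a stress kinase gene, had 124, 152 and 105 against 73.8, 68.5 and 78.7 (0.78 ± 0.14, adjusted p = 0.0028), and Plk2 had 773, 639 and 607 against 427, 439 and 419 (0.64 ± 0.11, adjusted p = 0.0012). The cell cycle inhibitor gene Cdkn1a, the best known target, had 380, 326 and 303 against 313, 303 and 362, with overlapping ranges, and did not pass (0.04 ± 0.11, adjusted p = 0.88). Trp53, which encodes p53 and lies on chromosome 11, had 882, 896 and 884 against 998, 1054 and 977 (-0.19 ± 0.09, adjusted p = 0.21), and passed as lower with the block in the 6 mixed arrays (adjusted p = 0.033).

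Of 29 apoptosis genes, 3 rose and 3 fell (10.3% each, near the 6.36% and 10.1% of all genes), and the median was -0.03. Casp8, the initiator caspase of death receptors, had 44.7, 35.9 and 44.9 in Bmpr1a-/- arrays and 74.4, 72.3 and 82.6 in wild-type arrays (-0.87 ± 0.11, adjusted p = 0.0002). Xiap and Mcl1, which restrain apoptosis, rose by 0.58 ± 0.13 (adjusted p = 0.0081) and 0.39 ± 0.07 (adjusted p = 0.0024). With the replicate block the list had 5 rises and 4 falls, and with the block in the 6 mixed arrays alone 5 rises and 8 falls.

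Of 31 cell cycle genes, 3 rose (9.68%) and 5 fell (16.1%), near the shares of 6.36% and 10.1% of all genes. The inhibitor genes Cdkn1c, with 138, 162 and 128 in Bmpr1a-/- arrays and 102, 103 and 76.8 in wild-type arrays (0.61 ± 0.12, adjusted p = 0.0046), and Cdkn1b, with 323, 316 and 325 against 213, 216 and 258 (0.49 ± 0.08, adjusted p = 0.001), rose. Beside Ccnd1, cyclin E1, Ccne1, fell, with 622, 764 and 685 against 904, 1005 and 947 (-0.47 ± 0.09, adjusted p = 0.0027), and so did Cdk6, a kinase partner of D-type cyclins (-0.47 ± 0.11, adjusted p = 0.0094). The other 23 did not pass. Without mixed Bmpr1a-/- replicate 2, or without mixed wild-type replicate 3, the falls were 3, and the rises were 5 after subtraction of array medians.

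**Figure D3:**
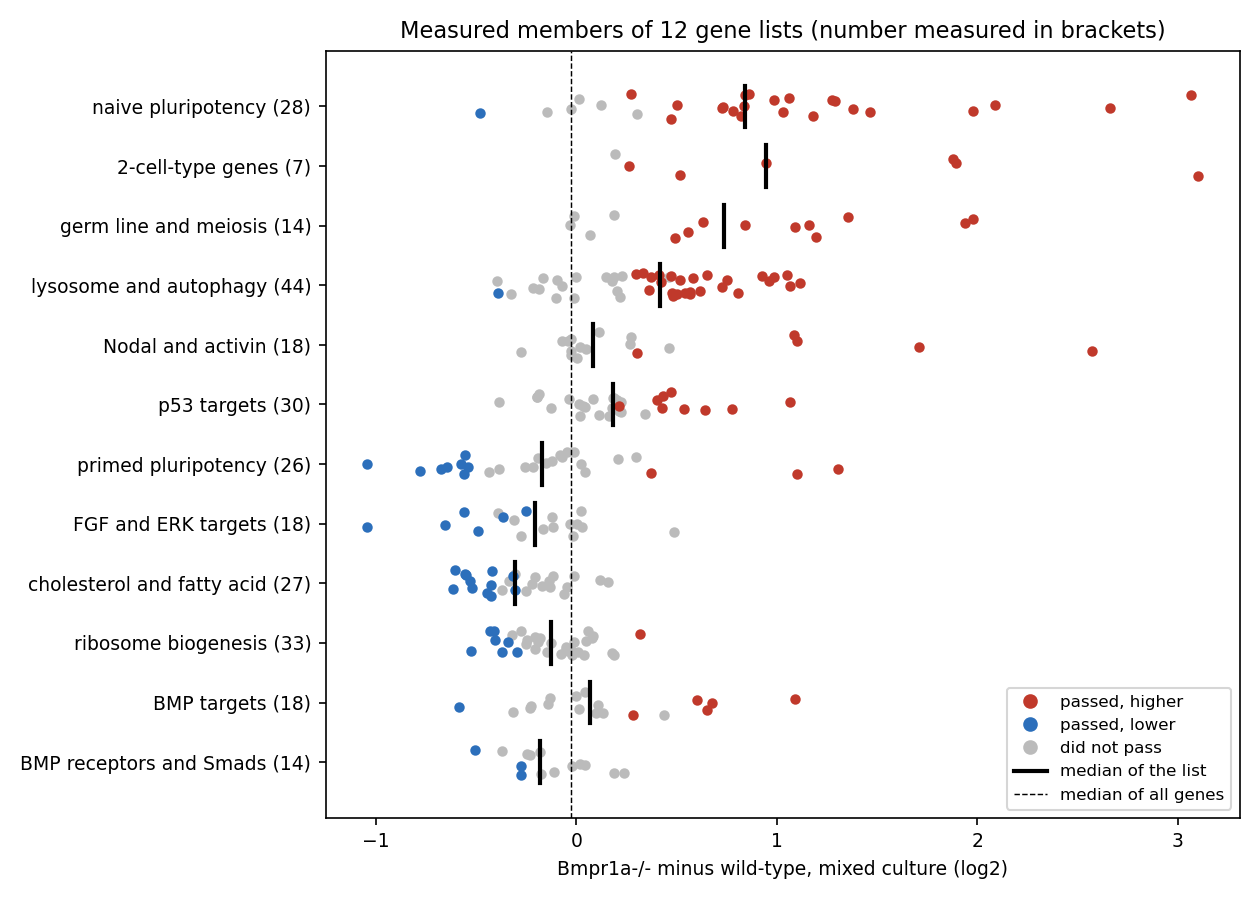
Measured members of 12 lists by their log2 difference in mixed culture, Bmpr1a-/- minus wild-type; red and blue points passed as higher and lower, grey points did not pass, black bars are list medians and the dashed line is the median of all genes (-0.02). The naive, germ line and lysosome lists lie mostly to the right, and the cholesterol and ERK target lists mostly to the left.

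Other large differences were spread over genes of many kinds. Aqp3, a water and glycerol channel gene, had 487, 358 and 425 in Bmpr1a-/- arrays and 72.2, 84.5 and 73.2 in wild-type arrays (2.46 ± 0.17, adjusted p = 2.4e-06). Gpa33, a cell surface antigen gene, had 304, 299 and 293 against 69.7, 59.9 and 56.9 (2.27 ± 0.10, adjusted p = 5.0e-08). Slc23a1, a vitamin C transporter gene, had 285, 217 and 207 against 68.6, 47.7 and 36.6 (2.25 ± 0.20, adjusted p = 2.4e-05). Triml2 rose by 2.25 and Zfp640 by 2.17. The largest difference of all belonged to a predicted gene listed as LOC100043292 (5.34 ± 0.37, mean signal 2945 in Bmpr1a-/- and 74.8 in wild-type cells), which the naming rule left out and which was picked after its values were seen.

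The interferon-induced membrane protein genes Ifitm1 (868, 1123 and 820 in Bmpr1a-/- arrays, 321, 210 and 193 in wild-type arrays, 1.98 ± 0.20, adjusted p = 4.5e-05) and Ifitm3 (1.46 ± 0.21, adjusted p = 0.00045) rose, among 3 of 18 interferon and antigen presentation genes that rose (16.7%, beside 6.36% of all genes). The 1 that fell was the MHC class I gene H2-K1 (-0.61 ± 0.16, adjusted p = 0.017), which lost the call without replicate 2 or 3 of the mixed Bmpr1a-/- cells or replicate 1 of the mixed wild-type cells (adjusted p up to 0.085). Hspb1, a small heat shock protein gene, had 758, 714 and 507 against 183, 149 and 175 (1.95 ± 0.18, adjusted p = 2.9e-05). It was 1 of 2 genes that rose among 21 linked to dissociation stress (9.52%, near the 6.36% of all genes). A pair of epithelial tight junction genes differed in opposite directions: Cldn4 had 1772, 1721 and 1895 against 664, 716 and 774 (1.32 ± 0.19, adjusted p = 0.00048), and Cldn7, on chromosome 11, had 280, 218 and 310 against 425, 420 and 441 (-0.68 ± 0.14, adjusted p = 0.0055).

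The deepest falls were smaller than the largest rises. Kctd12b, on the X chromosome, had 59.3, 54.3 and 46.6 in Bmpr1a-/- arrays and 131, 158 and 154 in wild-type arrays (-1.47 ± 0.14, adjusted p = 3.3e-05). Cpe, which encodes a carboxypeptidase that processes peptide hormones, had 126, 111 and 119 against 272, 337 and 297 (-1.34 ± 0.13, adjusted p = 4.2e-05). The cardiac actin gene Actc1 had 140, 126 and 160 against 259, 362 and 466 (-1.32 ± 0.28, adjusted p = 0.0055). The secreted proteins Spon1 (-1.17) and Igfbp4 (-1.19), the opioid precursor gene Penk (-1.19), the protocadherin gene Pcdh18 (-1.13) and the semaphorin gene Sema6a (-1.17) fell too, as did Vat1l (-1.19), Srl (-1.11), Nxn (-1.10) and the zinc transporter gene Slc39a8 (-1.19), with no overlap between the groups in any of them. Slc39a8 lost the call without mixed wild-type replicate 3 or without mixed Bmpr1a-/- replicate 2 (adjusted p up to 0.055).

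Markers of other cell types that ESC cultures can hold were measured as lists, beside 6.36% higher and 10.1% lower of all genes. The summed signal of 16 fibroblast markers was 1058 to 1122 in Bmpr1a-/- arrays and 1130 to 1357 in wild-type arrays, and 2 of the 16 fell (12.5%). These sums did not overlap. That of 23 neural markers was 1652 to 1734 against 1825 to 2182, also without overlap, with 1 of the 23 that rose and 3 that fell, near those shares. The neural falls were 1 without any 1 of 5 mixed arrays (all but wild-type replicate 1), and none rose without any 1 of the 6, while the fibroblast falls were 1 without any 1 of the same 5. Of the trophoblast markers 4 of 17 rose (23.5%, and 6 of 17 with the replicate block) and none fell, of the endoderm markers 2 rose and 3 fell, and of the streak markers 1 rose. No endoderm or streak marker rose without mixed Bmpr1a-/- replicate 2 or without mixed Bmpr1a-/- replicate 3. The part of these cell types in the results above was not tested. The sums of 17 endoderm markers (2291 to 2643 against 2419 to 2755), 17 trophoblast markers (2013 to 2473 against 1882 to 2228) and 19 primitive streak markers (952 to 986 against 913 to 1012) overlapped. The streak gene T, brachyury, stood under the median of the table in all 6 arrays (41.2, 39.1 and 53.6 in Bmpr1a-/- arrays, 39.1, 53.4 and 42.6 in wild-type arrays), as did 14 of the 19 streak genes by group mean in each genotype. Tfap2c, a factor of trophoblast and germ cells, was the trophoblast list's largest rise (105, 161 and 110 against 52.0, 49.9 and 55.7, 1.23 ± 0.15, adjusted p = 0.00016).

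Bmpr1a-/- and wild-type cells also differed by chromosome. Xist, the RNA that silences 1 X chromosome in female cells, had 677, 687 and 700 in Bmpr1a-/- arrays and 27.1, 25.5 and 27.6 in wild-type arrays (4.69 ± 0.13, adjusted p = 5.1e-10). The wild-type signals were near the floor of the array. The Y-linked genes Ddx3y (23.2 to 23.9 against 23.2 to 24.2), Eif2s3y (20.8 to 21.1 against 20.1 to 20.9) and Uty (20.9 to 22.1 against 21.9 to 22.3) were near the floor in both. The Y-linked genes Sry (51.2 to 57.7 against 45.5 to 61.1) and Uba1y (30.0 to 30.5 against 28.8 to 30.2) gave higher signals, with overlapping ranges. Whether those signals come from the Y chromosome was not tested. Of 565 X-linked genes, 149 rose (26.4%) and 59 fell (10.4%), with a median of 0.06. Along the chromosome in RefSeq gene order, the first of 5 blocks of 113 genes had a median of 0.25 and 46 rises, and the last a median of -0.14, 6 rises and 35 falls. Efhc2, an X-linked gene, had 281, 316 and 243 against 37.4, 37.3 and 36.9 (2.90 ± 0.09, adjusted p = 1.7e-09).

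On chromosome 11, 488 of 1385 genes fell (35.2%) and 22 rose (1.59%), with a median of -0.17. The fall ran along the whole chromosome: the medians of 5 blocks of 277 genes in RefSeq order were between -0.25 and -0.10. On the other 18 autosomes the medians lay between -0.05 and -0.003 and the share that fell between 5.07% and 12.2%. In separate culture the median was -0.17 on chromosome 11 and 0.05 on X. Of the 15671 genes on neither chromosome, 950 (6.06%) were higher and 1237 (7.89%) lower. The naive list kept its median of 0.84 without them (20 of 24 rose, none fell), and the lysosome list had a median of 0.47 (22 of 35 rose, none fell). Not every gene on these 2 chromosomes was marked where it was named: among others, Nr0b1 and Xiap lie on X, and Igfbp4, Nxn and Pecam1 on chromosome 11. Whether the lines differ in copy number of these chromosomes was not tested.

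**Figure D4:**
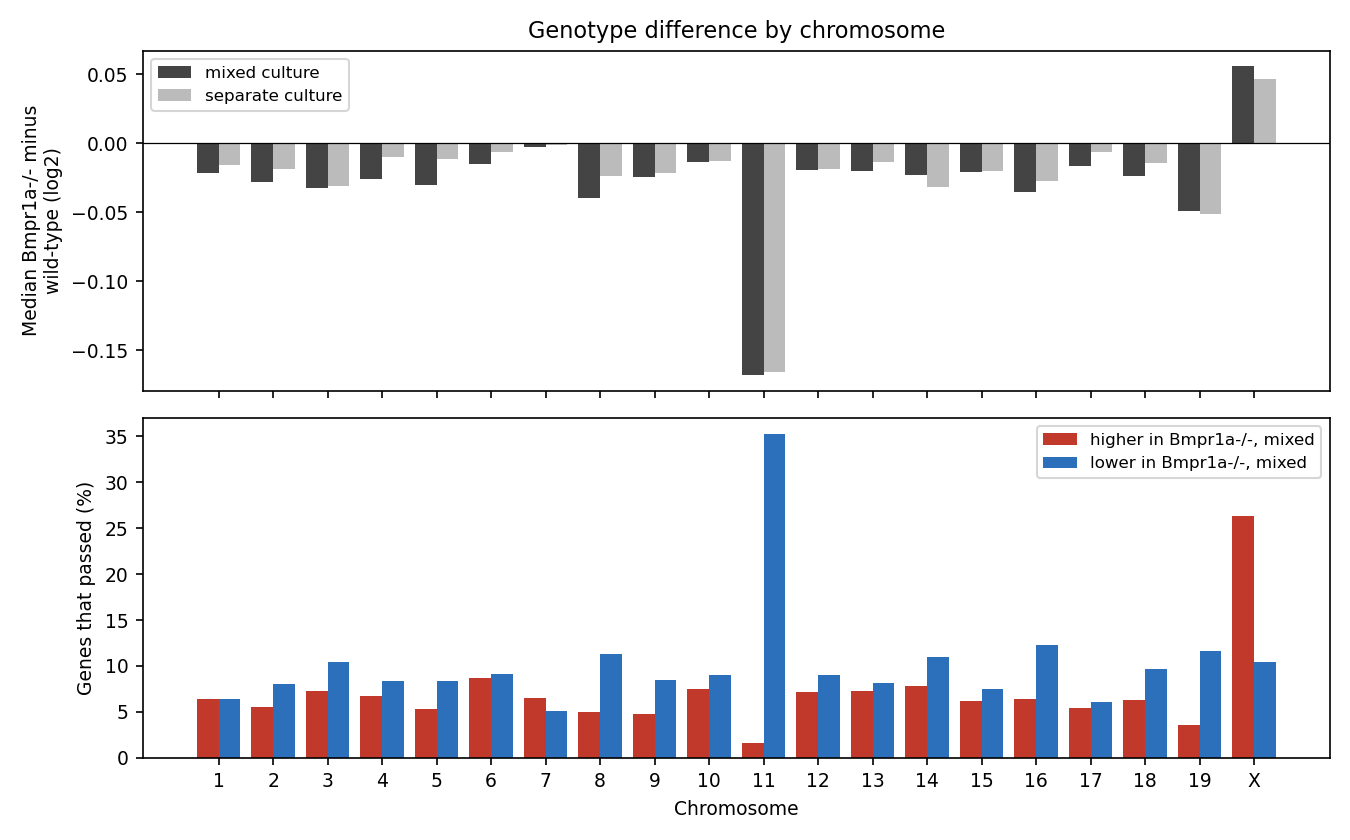
The upper panel gives the median log2 difference, Bmpr1a-/- minus wild-type, of the genes of each chromosome in mixed (dark) and separate (light) culture; the lower panel gives the share of genes that passed in mixed culture, higher (red) and lower (blue). Chromosome 11 stands apart with a median of -0.17 and 35.2% of genes lower, and X with 26.4% higher.

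The genotype difference was then set beside the same difference in cells grown apart. The 2 differences share no array, but both use the spread of each gene from the fit of all 12 arrays, so their calls are not independent. In separate culture 1980 genes (11.2%) passed, 870 higher (4.94%) and 1110 lower (6.30%). In both kinds of culture 1156 genes passed, which is 39.8% of those in mixed and 58.4% of those in separate culture, and 1141 of them went the same way. The difference between the 2 differences, mixed minus separate, was tested gene by gene, and 121 genes passed (0.687%), 53 with a more positive and 68 with a more negative genotype difference in mixed culture. With the replicate number as a block 387 passed, and without mixed wild-type replicate 2, 25 passed. The same test passed 35 to 62 genes without mixed Bmpr1a-/- replicate 2 or 3, mixed wild-type replicate 1 or 3, or separate wild-type replicate 1 or 2 or separate Bmpr1a-/- replicate 2, and 70 without separate Bmpr1a-/- replicate 1.

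Lysosome genes had a median genotype difference of 0.42 in mixed and -0.04 in separate culture. In separate culture 2 of the 44 rose and 6 fell. The difference of the differences was positive in 42 of 44 genes, with a median of 0.44 beside -0.01 over all genes, and passed in 4 (Ctsa, Hexa, Mcoln1 and Neu1), beside 0.687% of all genes. For Hexa the genotype difference was 1.07 in mixed and -0.04 in separate culture (difference 1.10, adjusted p = 0.032), and for Mcoln1 it was 0.96 and 0.18 (difference 0.78, adjusted p = 0.0088). Renbp, an X-linked renin-binding protein gene, went the same way, at 1.85 and 0.69 (difference 1.16, adjusted p = 0.0088).

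FGF and ERK targets had a median of -0.21 in mixed and 0.33 in separate culture, and 6 of the 18 passed the test of the difference, all more negative in mixed culture. Etv4 differed by -1.04 in mixed and 0.40 in separate culture (difference -1.44, adjusted p = 0.0082). Dusp6, an ERK phosphatase gene that ERK induces, fell in mixed culture (-0.37) and rose in separate culture (0.65), with a difference of -1.01 (adjusted p = 0.0088). Myc, a growth factor-induced transcription factor gene, differed by -0.16 and 1.17 (difference -1.33, adjusted p = 0.020).

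Primed genes had medians of -0.17 and 0.28, with 25 of 26 more negative in mixed culture and 4 that passed. Etv4, given above as an ERK target, is 1 of these 4, so the 2 lists are not separate here. Nodal rose in both kinds of culture, but less in mixed, at 1.10 against 2.50 (difference -1.40, adjusted p = 0.032), and Fgf5 differed by -0.67 and 0.41 (difference -1.08, adjusted p = 0.040). The deepest contrast among the genes named by p-value was Fst, the activin antagonist follistatin, with signals of 121, 105 and 97.3 in mixed Bmpr1a-/- and 102, 104 and 86.5 in mixed wild-type arrays, a genotype difference of 0.14 beside 2.67 in separate culture (difference -2.53, adjusted p = 0.0082). Smad7 rose in both, by 0.68 in mixed and 1.91 in separate culture (difference -1.24, adjusted p = 0.0082). Naive genes had medians of 0.84 and 0.66. Their difference of the differences was positive in 25 of 28 genes, with a median of 0.34, and none of the 28 passed the test of the difference. Ribosome biogenesis genes were more negative in mixed culture in 32 of 33 (median -0.28, 1 passed). Cholesterol and fatty acid genes were so in 23 of 27 (median -0.20, none passed).

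**Figure D5:**
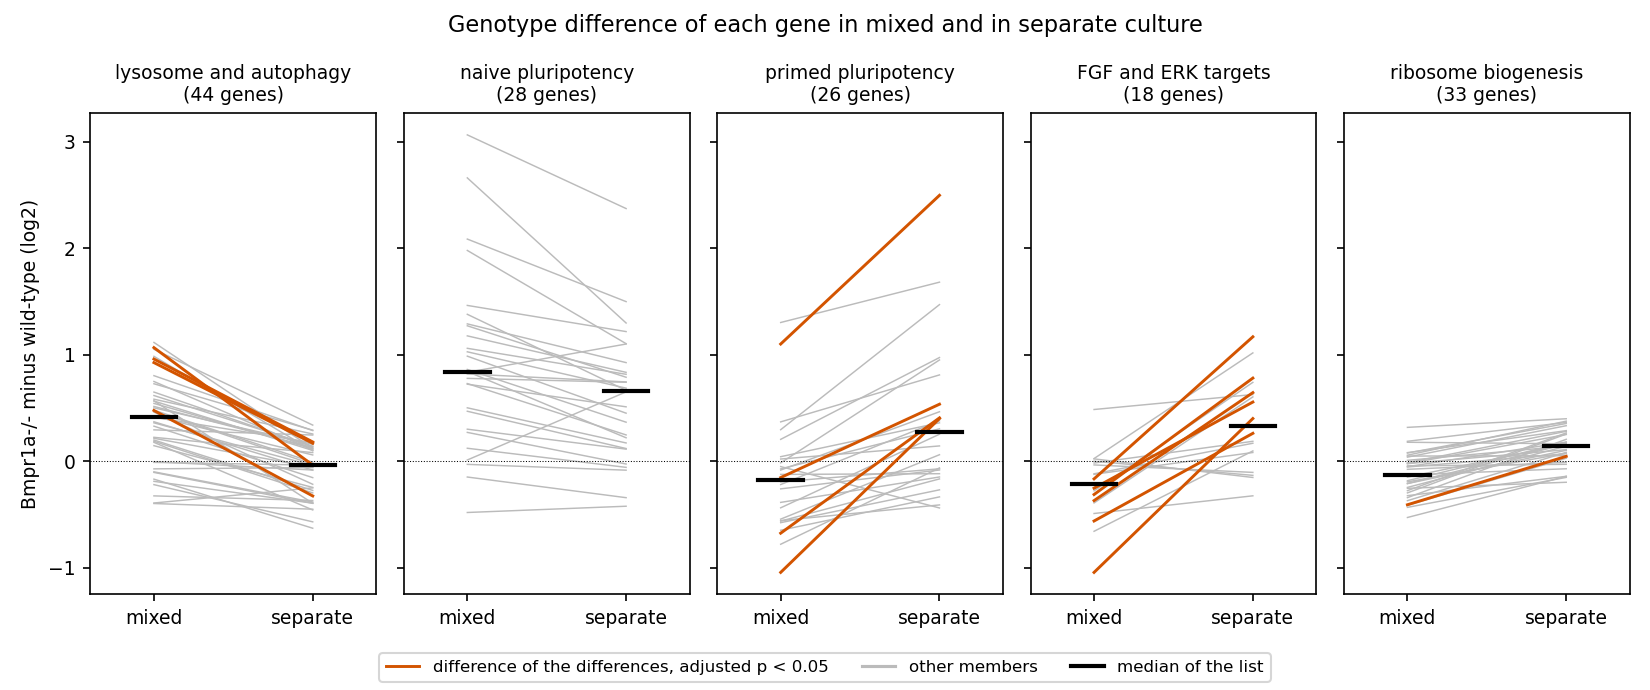
Each line is 1 gene of a list, drawn between its log2 genotype difference (Bmpr1a-/- minus wild-type) in mixed culture on the left and in separate culture on the right; black bars are the list medians and orange lines the genes whose difference of the differences passed. Lysosome genes stand higher in mixed culture (medians 0.42 and -0.04), FGF and ERK targets (-0.21 and 0.33) and primed genes (-0.17 and 0.28) stand lower, and naive genes are high in both.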

How the data were processed

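RNA of 12 samples was measured on Affymetrix MoGene ST arrays. The authors normalized them with RMA in Affymetrix Expression Console 1.2, per the submitters' processing notes, and the file headers name quantile normalization, core probe sets and a baseline at the median of all samples. The deposited log2 values of the series table are therefore centred per probe set, per the file headers. The deposited intensity values of a second sheet, which the authors call raw, equalled them on the log2 scale up to a constant per probe set (largest spread 2.18e-06), so they are linear RMA signal and served as the level. The design had assumed a level in the series table. The headers name 1 further array of another day that the authors left out. The sources used here name no genome build for the probe annotation.

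Of 28815 probe sets, 22700 had 1 symbol, 2478 several and 3637 none. In the RefSeq gene table (GRCm38.p6), 16822 of the symbols were current, 2621 were updated by accession and 1279 by synonym, and 1978 were kept. A probe set entered the tests if its mean over all arrays reached 25.37, the 20th percentile of the table, and the probe set with the highest mean stood for its gene. Group means of all 12 arrays were fitted with limma 3.58.1 (lmFit, eBayes) in R 4.3.3, with 8 residual and 12.7 total degrees of freedom, and p-values are two-sided and Benjamini-Hochberg adjusted over 17621 genes, with 0.05 as the threshold. Those carrying more than 1 symbol had a separate fit. The fit was tested on simulated data. The number of arrays, 3 per group, limits the precision.

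The genes, the 37 lists and the comparison were chosen with earlier results of these data known, so no list was tested: lists are given by counts and medians. Some genes stand in more than 1 list: the 743 measured entries of the lists stand for 698 genes. Genes were named by rule: Bmpr1a, the 12 largest rises and 12 largest falls (without unnamed gene models), all members of lists of up to 12 measured genes and the 6 largest differences of longer lists, a set of regulators, and for the difference of the differences the 8 smallest p-values. Grhl2, Becn1, Rptor, Rps6kb1, Neu1, Dusp6, Lamp1 and LOC100043292 were named after their values were seen. Same-numbered mixed arrays deviated together from their group means (correlation 0.381 to 0.641 in 3 pairs, against -0.464 to 0.144 in 6 pairs of different number), so the numbers pair them; the file headers call them experiments. Alternatives were the replicate block, other normalizations, filters, probe set choices and variance models, and each array left out. Promoter sequences came from RefSeq. Some genes that the rule names are not reported here.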

Additional observations from a re-analysis of the deposited data

Results flagged for a closer look

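For each gene below, the genotype difference (Bmpr1a-/- minus wild-type) in mixed culture differed from that in separate culture by the gene's own test in limma (adjusted p under 0.05 over all genes). Values are the mixed minus the separate difference on the log2 scale. The 121 genes passing this test became 25 without mixed wild-type replicate 2, and how each call below held without single arrays is not given here.

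Of genes in the lysosome and mTOR lists the value was 1.10 for Hexa, 0.78 for Mcoln1, 0.76 for Ctsa and 0.62 for Rragc. It was 1.21 for the antigen presentation gene B2m, which differed by 0.30 in mixed and -0.91 in separate culture. Among the largest rises it was 1.17 for Aqp3 and 0.77 for Gpa33, and Renbp had 1.16.

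Of genes in the FGF, ERK and growth lists the value was -1.44 for Etv4, -1.33 for Myc, -1.08 for Fgf5, -0.82 for Ccnd1, -0.81 for Il17rd, -0.67 for Ccne1 and -0.45 for Ddx21. Of genes in the BMP and Nodal lists it was -2.53 for Fst, -1.40 for Nodal, -1.24 for Smad7 and -0.59 for Skil. The Eph receptor genes had -1.64 (Epha1) and -1.01 (Epha2), and Epha1 fell in mixed culture (-0.77) and rose in separate culture (0.87). The neurofilament genes had -1.44 (Nefl) and -1.10 (Nefm). The others were Ppp4r4 with -1.63, Sema6a with -1.26, Mmp25 with -0.86 and Map3k5 with -0.82.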

How the results depend on the processing

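The count of 2905 genes lay between 2697 and 4211 under the filters, normalizations, probe set choices and variance models tried, and at 3814 with the replicate number as a block in all 12 arrays. The lowest of these, 2697, was out of only 11258 genes, those left by the filter at the 50th percentile. The block with the 6 mixed arrays only gave 5671, and leaving out 1 array gave 1851 (without mixed Bmpr1a-/- replicate 2) to 3122. A fit without genes of chromosomes 11 and X, an alternative added after the data were seen, gave 2033 of 15671. The 121 genes of the difference of the differences became 387 with the replicate block, 209 with array weights and 25 (without mixed wild-type replicate 2) to 132 when 1 array was left out (the arrays that moved it by over 1.5 times stand beside the result above); the cause was not tested. Of 166 named genes that passed, none changed sign under any of these settings, 122 kept the call in every leave-out and 44 lost it in at least 1; 21 lost it under another setting, and the replicate block ended none of the calls and added 23 among the 94 that had not passed. The headers name no array batch beyond the experiment number, so that block was not run.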

Other observations

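Further lists are given by the number of genes that passed, beside 6.36% higher and 10.1% lower of all genes. Of 18 Eph receptors and ephrins, which mediate contact signals between cells, 3 rose (16.7%) and 4 fell (22.2%); Epha2 had 141, 166 and 135 in mixed Bmpr1a-/- arrays and 104, 95.9 and 98.7 in mixed wild-type arrays (0.56 ± 0.13, adjusted p = 0.0091). Of 18 Wnt genes 1 rose and 3 fell, of 26 Hippo and polarity genes none rose and 5 fell (19.2%, 4 of the 5 on chromosomes 11 and X), and of 26 genes of the unfolded protein response and ATF4 2 rose and 4 fell. Nupr1, a stress-induced gene, had 98.5, 87.2 and 95.9 against 52.3, 56.3 and 55.9 (0.77 ± 0.07, adjusted p = 2.8e-05). Of 27 respiratory chain genes none rose and 3 fell, with a median of -0.14; Ndufb8, a complex I subunit gene, fell by 0.34 on the log2 scale (SE 0.07, adjusted p = 0.0055). Of 19 epithelial and mesenchymal genes 3 rose (15.8%) and 2 fell (10.5%); fibronectin, Fn1, had 673, 1018 and 862 against 340, 318 and 344 (1.33 ± 0.15, adjusted p = 0.00012). Of 11 genes of the Myc family 1 rose and 1 fell: Max, the partner of Myc, rose by 0.37 ± 0.08 (adjusted p = 0.0070), and Mycn did not pass (0.08 ± 0.18, adjusted p = 0.86). Of 10 genes of FGF ligands and receptors, Fgf4 and Fgfr4 rose and Fgf5 fell; Fgfr4, a receptor gene, rose by 0.42 ± 0.10 (adjusted p = 0.010).

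These small counts moved when single mixed arrays were left out. The Eph falls were 1 without mixed Bmpr1a-/- replicate 1 or mixed wild-type replicate 2 and 2 without replicate 3 of either mixed group, and its rises were 1 without mixed Bmpr1a-/- replicate 2. The Hippo falls were 2 without mixed Bmpr1a-/- replicate 2 and 3 without each of 4 others (mixed Bmpr1a-/- replicates 1 and 3, mixed wild-type replicates 2 and 3). The falls of the unfolded protein response list were 1 without mixed Bmpr1a-/- replicate 2 or 3 or mixed wild-type replicate 2, and those of the Wnt list 1 without mixed wild-type replicate 2. The rises of the unfolded protein response list were 1 without any 1 mixed array other than wild-type replicate 3. The rises of the Wnt list went down to 0 in at least 1 leave-out. The respiratory chain falls were 6 without mixed Bmpr1a-/- replicate 1 and 6 with the replicate block.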
